A study of Mus musculus with 6 samples.

Results

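The machinery that targets proteins to the endoplasmic reticulum (ER), passes them through its membrane, cuts off their signal peptides and inserts membrane proteins was examined through 40 genes, of 54532 genes in the deposited table. They were chosen by gene name, as subunits of the complexes described below, with earlier results of these data known. The table held 38 of them under the symbols used here, and the other two, Hm13 and Camlg, under the older symbols H13 and Caml, matched through RefSeq synonyms. All 40 are protein-coding genes, and all 40 had enough counts to be tested, with 22 to 26928 counts per gene and library. The labels name the cells as NIT-1, a mouse insulinoma line, and call them beta cells, which the marker counts given below go against. The EV_Tm group, of 3 libraries, was cultured for 16 h with hucMSC-EVs, which are vesicles shed by mesenchymal stem cells of the human umbilical cord, and the PBS_Tm group, also of 3, was given PBS for as long. Both groups were then exposed for 8 h to Tm, read here as tunicamycin, which blocks N-linked glycosylation and so burdens protein folding in the ER. One label calls the PBS_Tm samples untreated, while the design text and their titles place them in the Tm arm. The groups are taken here as the design text and titles give them, with Tm in both, and no value was used to decide between the labels. No group that all labels place outside the Tm arm was analysed here.

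A signal peptide emerging from the ribosome is bound by the signal recognition particle (SRP), which docks on its receptor at the ER membrane and hands the chain to the Sec61 channel. The translocon-associated protein complex (TRAP), TRAM and SERP1 sit beside the channel, signal peptidase removes the signal peptide, and signal peptide peptidase cuts what is left in the membrane. Proteins anchored by their tail enter instead through the tail-anchor receptor or the ER membrane protein complex (EMC). The EMC also inserts the first segments of many proteins that cross the membrane several times. Several of these genes are known targets of the transcription factor XBP1 in the unfolded protein response, and secretory cells such as beta cells rely on the whole route for hormone precursors.

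The libraries held 28654248 to 32550268 counts. Beta-cell markers were close to absent from both groups, which goes against the labelled cell type. Their summed level over 22 genes was 0.409 to 1.57 CPM (counts scaled to the size of the library) in EV_Tm and 0.619 to 1.24 CPM in PBS_Tm, and 13 of the 22 had at most 3 counts in every library. Ins2, Iapp and Pdx1 had 0 counts in all 6 libraries and Ins1 had 1. Since 0 counts still allow up to 3, the limit per library was at most 0.105 CPM, for counting error alone. Of the other markers, those of exocrine pancreas summed to 113 to 116 CPM in EV_Tm and 84.6 to 92.6 CPM in PBS_Tm over 6 genes, with Cela1 and Sox9 above 1 CPM and the other 4 at or under 3 counts in every library. Markers of fibroblasts, endothelium and immune cells summed to 50.4 to 54.0 CPM in EV_Tm and 51.2 to 52.4 CPM in PBS_Tm over 10 genes, of which 1 stayed at or under 3 counts. Col1a1, Col3a1, Pdgfra, Pecam1, Cdh5 and Cd68 were above 1 CPM. The sum hides opposite moves. Col1a1 had 58, 44 and 76 counts in EV_Tm and 117, 95 and 96 in PBS_Tm. Col3a1 had 223, 173 and 181 counts in EV_Tm and 118, 119 and 101 in PBS_Tm. Other islet cell markers summed to 20.4 to 21.1 CPM in EV_Tm and 22.0 to 24.9 CPM in PBS_Tm over 6 genes, with Hhex the only one above 1 CPM. The part of these differences in the results was not tested. In bulk samples, fewer cells of a type and less RNA per cell cannot be told apart. Whether the samples of each group came from separate cultures is not labelled, and p-values therefore measure only their spread, which could be technical.

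Most of the targeting, channel and signal peptidase genes were lower in EV_Tm, while the 9 EMC genes went both ways, with 3 lower and 2 higher, and 1 of the 3 tail-anchor genes was lower. Differences between complexes were not tested. Among the members 24 fell, 5 rose, and another 11 did not pass (edgeR quasi-likelihood test, Benjamini-Hochberg adjusted p under 0.05 over all 16844 tested genes). The share that fell was 60.0%, where 24.7% of all tested genes fell, and the share that rose was 12.5%, where 22.6% of all tested genes rose. These counts include the 3 close copies of Srp54, whose separate values are uncertain, as described below. Without the copies, 23 of 37 genes fell (62.2%) and 4 rose (10.8%). Over all genes 47.4% passed in either direction, so a single call says little of a gene beyond its direction and size. A gene that did not pass is not shown to be unchanged. The median log2 fold change of EV_Tm over PBS_Tm was -0.37 over the 40 genes and 0.01 over all tested genes. The 6 genes that fell at least 2-fold were Sec11c, Serp1, Spcs2, Sec61a1, Spcs3 and Tram1, a size of fall seen in 2.69% of all tested genes. Only Srp54b rose at least 2-fold, as did 3.28% of all tested genes, and without the Srp54 copies no member did.

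**Figure D1:**
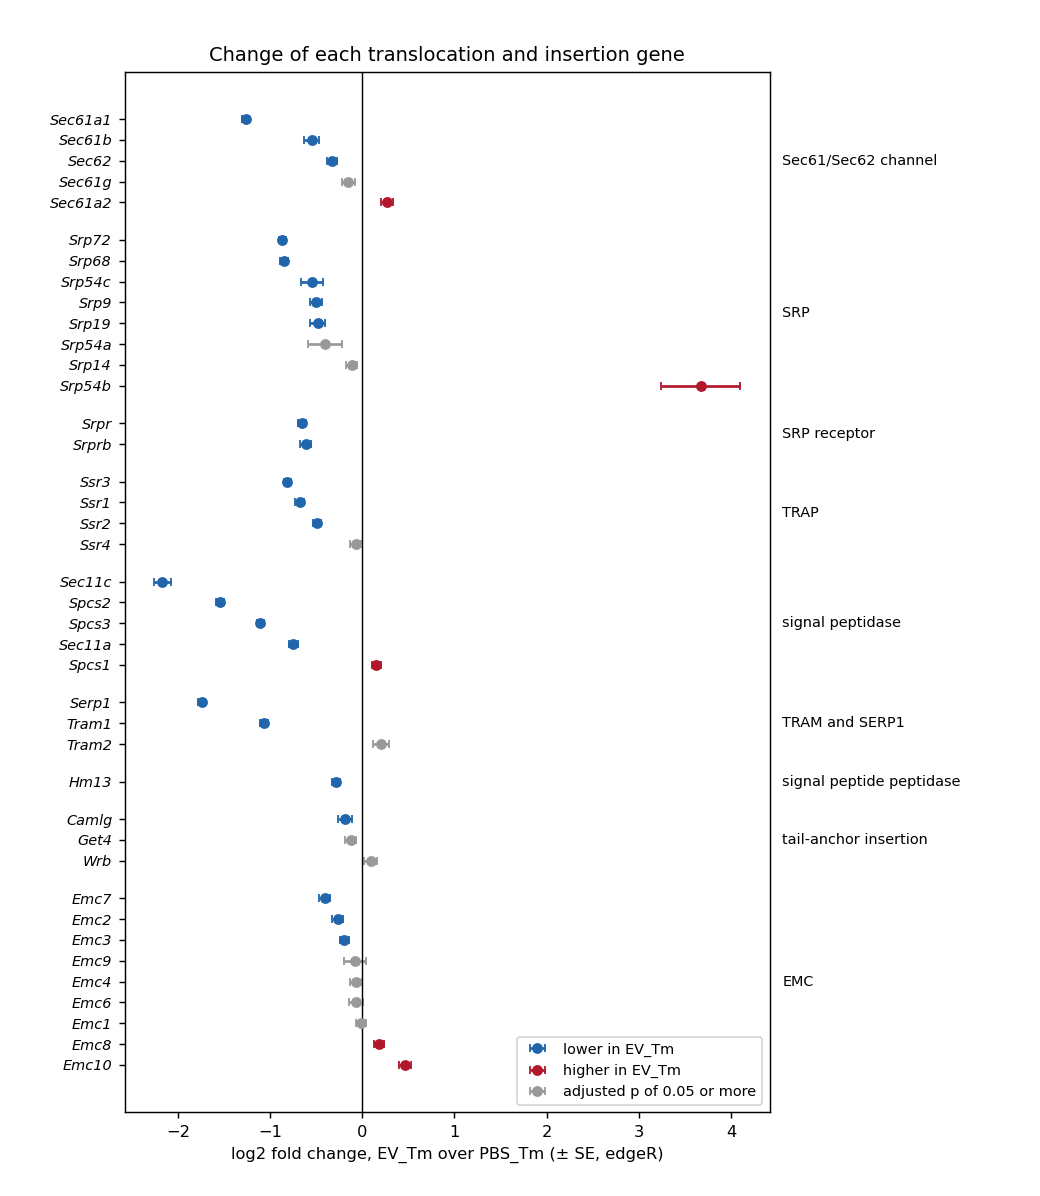
Log2 fold change of EV_Tm over PBS_Tm (x axis, ± SE, 3 libraries per group) for each of the 40 genes, grouped by complex. Signal peptidase spans from -2.17 for Sec11c to 0.15 for Spcs1, the EMC genes lie between -0.41 and 0.46, and Srp54b stands alone at 3.67.

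Summed levels are given for each complex. CPM values use the library size after TMM normalization, except those of the markers and their limit above, which use the total counts. Summed over the members, TRAM and SERP1 stood at 326, 321 and 323 CPM in the EV_Tm libraries, against 867, 893 and 881 CPM in the PBS_Tm libraries. Signal peptidase summed to 394 ± 3 CPM in EV_Tm and 756 ± 24 CPM in PBS_Tm (SD, n = 3 each), and the Sec61 and Sec62 genes to 471 ± 12 CPM in EV_Tm and 872 ± 3 CPM in PBS_Tm. In each of these sums no EV_Tm library reached the lowest PBS_Tm library. TRAP summed to 723 ± 9 CPM in EV_Tm and 1186 ± 32 CPM in PBS_Tm. SRP reached 381 ± 6 CPM in EV_Tm and 603 ± 16 CPM in PBS_Tm, and its receptor 180 ± 1 CPM in EV_Tm and 281 ± 10 CPM in PBS_Tm. The sums of the EMC were almost level, at 457, 457 and 450 CPM in EV_Tm and 472, 459 and 455 CPM in PBS_Tm, and the groups overlapped. The tail-anchor genes summed to 102 ± 3 CPM in EV_Tm and 108 ± 3 CPM in PBS_Tm, and here too the groups overlapped. These sums weigh abundant genes most and are given as a description, with no test. By median over their genes, signal peptidase had a log2 fold change of -1.10, TRAM and SERP1 one of -1.07, the receptor -0.63, TRAP -0.59, SRP -0.49, the channel genes -0.33, the tail-anchor genes -0.13 and the EMC -0.07.

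**Figure D2:**
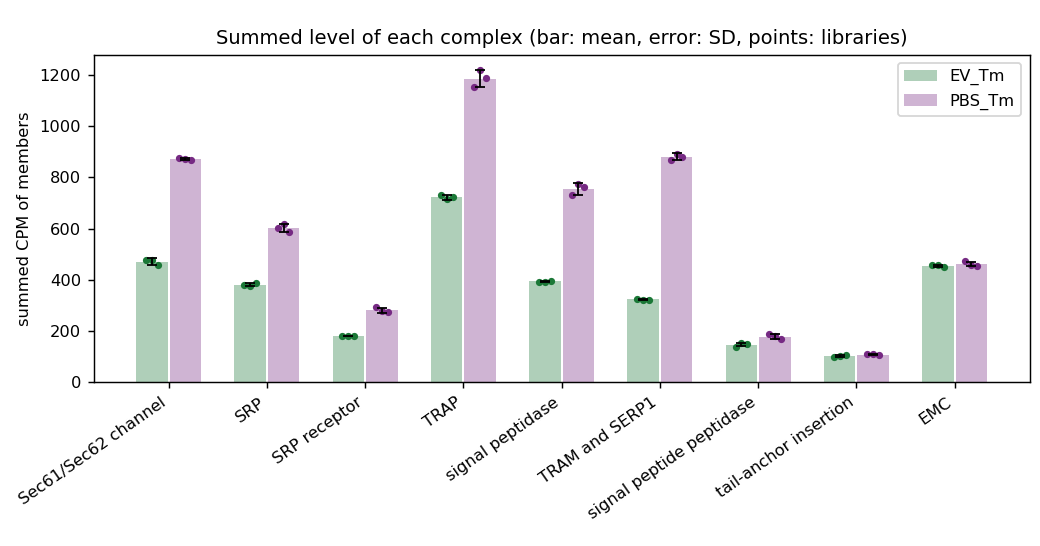
Summed CPM of the genes of each complex (y axis; bars show the mean, error bars the SD, points the 3 libraries of each group). EV_Tm bars are lower for every group up to signal peptide peptidase, while those of the EMC are 455 and 462 CPM on average in EV_Tm and PBS_Tm.

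SRP is the cytosolic ribonucleoprotein that recognises the signal peptide. Its largest protein subunits, SRP68 and SRP72, bind each other and the SRP RNA, and their genes fell almost in step. Srp72 (chr5:76974683-76999937, coordinates on GRCm38 throughout) stood at 144, 144 and 141 CPM in EV_Tm libraries and 257, 264 and 260 CPM in PBS_Tm libraries. Srp68 was at 95.5, 90.2 and 92.3 CPM in EV_Tm and 171, 168 and 162 CPM in PBS_Tm. All 3 EV_Tm libraries lay far below all PBS_Tm libraries for both genes, as log2 fold changes of -0.87 ± 0.04 for Srp72 and -0.85 ± 0.04 for Srp68 (SE, edgeR adjusted p = 4.75e-15 and 6.10e-14). The subunits SRP9 and SRP14 form the domain that slows translation while the ribosome is carried to the membrane, and at the threshold used here the gene of the first was called lower and that of the other was not. Srp9 had 36.3, 38.8 and 36.0 CPM in EV_Tm and 54.4, 53.5 and 49.2 CPM in PBS_Tm, a 1.42-fold lower level, whereas Srp14 had 51.8, 51.1 and 55.0 CPM in EV_Tm and 58.1, 60.4 and 52.5 CPM in PBS_Tm, groups that overlap. Srp14 was called lower without PBS_Tm replicate 3 (log2 fold change -0.18, edgeR adjusted p = 0.0187) and with an offset for gene length (-0.24, edgeR adjusted p = 0.00169). Whether Srp9 and Srp14 differed from each other was not tested. Srp19, whose protein helps SRP54 join the particle, was 1.40-fold lower, at 26.6 ± 3.2 CPM in EV_Tm and 37.3 ± 1.8 CPM in PBS_Tm (SD, n = 3 each, edgeR adjusted p = 2.13e-05).

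SRP54 is the subunit that holds the signal peptide and binds GTP, and the mouse genome carries its gene in 3 neighbouring copies on the plus strand of chromosome 12. These are Srp54a (chr12:55080262-55115367), Srp54b (chr12:55155104-55189573) and Srp54c (chr12:55230168-55263836). In the GENCODE M21 transcripts the longest coding sequences of Srp54a and Srp54b were identical over all 1515 bases, and that of Srp54c differed from both at 6 bases. Of the 100-base windows of their annotated transcripts, 66.6% of those of Srp54a, 87.6% of those of Srp54b and 89.5% of those of Srp54c also occur in a transcript of another gene. The coding stretch with most differences, bases 906 to 965 counted from the A of the start codon, is shown to make clear how little separates the copies, with the 3 positions that differ in capitals:
Srp54a: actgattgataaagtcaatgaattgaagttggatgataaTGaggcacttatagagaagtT
Srp54b: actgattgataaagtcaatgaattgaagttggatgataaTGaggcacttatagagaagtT
Srp54c: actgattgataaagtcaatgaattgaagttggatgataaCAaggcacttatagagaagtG
A read from these 60 bases could tell Srp54c from the others, and no read from the coding sequence alone could tell Srp54a from Srp54b.

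The counts of the copies moved in different directions. Srp54b had 429, 65 and 440 counts in the EV_Tm libraries and 22, 29 and 22 counts in the PBS_Tm libraries, or 13.8, 2.24 and 13.7 CPM in EV_Tm and 0.692, 0.961 and 0.684 CPM in PBS_Tm. The EV_Tm libraries thus fell apart, with replicate 2 far below the other two and yet above every PBS_Tm library. The fitted log2 change stood at 3.67, with an SE of 0.43 (edgeR adjusted p = 1.16e-07), and it was 4.13 without EV_Tm replicate 2. Srp54c fell, with 13.7, 17.6 and 17.5 CPM in EV_Tm and 21.2, 29.8 and 20.4 CPM in PBS_Tm (log2 fold change -0.55 ± 0.12, SE, edgeR adjusted p = 5.04e-04). Srp54a, at 3.76, 3.35 and 3.35 CPM in EV_Tm and 5.47, 3.84 and 4.51 CPM in PBS_Tm, did not pass (edgeR adjusted p = 0.0726). Srp54b made up 44.2%, 9.66% and 39.5% of the summed CPM of the copies in EV_Tm and 2.53%, 2.78% and 2.67% in PBS_Tm. The sum of the copies was 31.2, 23.2 and 34.6 CPM in EV_Tm and 27.4, 34.6 and 25.6 CPM in PBS_Tm, so that the groups overlapped. Fitted as 1 gene, the copies changed by 0.03 ± 0.11 on the log2 scale and did not pass (SE, edgeR adjusted p = 0.872). The sources used here do not state how reads with several positions were counted, so the value of each copy is uncertain. The sum does not depend on how such reads were split between the copies, but it would miss them if they were left out.

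**Figure D3:**
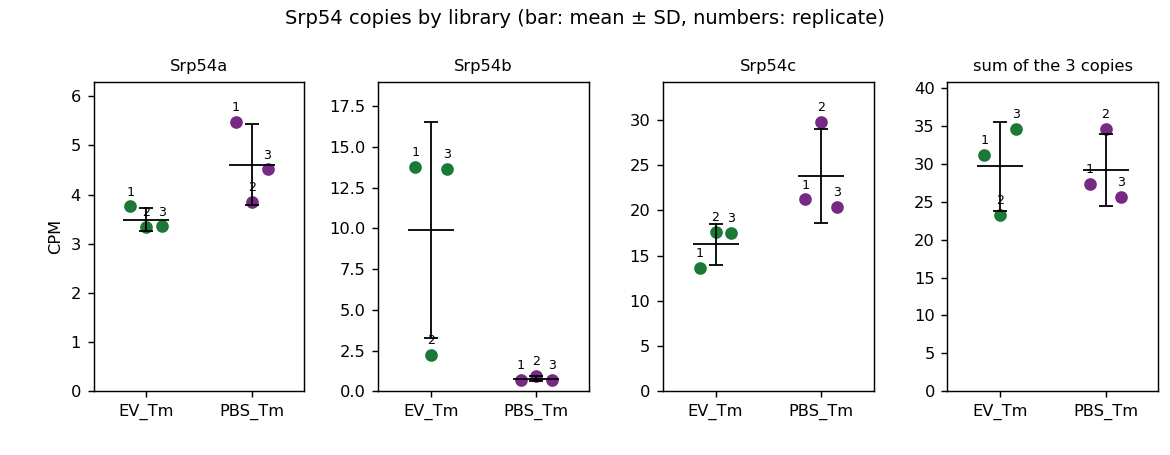
CPM of Srp54a, Srp54b, Srp54c and their sum (y axes, each from 0) in the 3 EV_Tm and 3 PBS_Tm libraries; black bars show the mean ± SD and the small numbers the replicate. Srp54b is high in EV_Tm replicates 1 and 3 and low in replicate 2, while the sums of the groups overlap.

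The SRP receptor is made of an alpha subunit that meets SRP and a beta subunit that anchors it in the membrane, encoded by Srpr and Srprb, and both genes fell. Srpr (chr9:35200175-35247973) was at 140, 138 and 140 CPM in EV_Tm and 230, 214 and 212 CPM in PBS_Tm, a 1.57-fold lower level (edgeR adjusted p = 4.84e-12). Srprb was at 40.4, 40.9 and 41.4 CPM in EV_Tm and 63.0, 64.0 and 60.6 CPM in PBS_Tm, 1.53-fold lower (edgeR adjusted p = 2.37e-09). The EV_Tm libraries agreed closely with each other for both genes and lay below all PBS_Tm libraries. In the annotation 20.7% of the exonic bases of Srprb lie also in exons of Gm20425 on the same strand, so its counts may mix the genes.

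The Sec61 channel is a trimer of an alpha subunit that forms the pore and the small beta and gamma subunits. The gene of the main pore subunit, Sec61a1 (chr6:88503579-88518905), was at 262, 270 and 253 CPM in EV_Tm and 640, 622 and 622 CPM in PBS_Tm, a 2.40-fold lower level (log2 fold change -1.26 ± 0.04, SE, edgeR adjusted p = 1.02e-18). Its paralogue Sec61a2 went the other way, with 50.5, 55.2 and 52.3 CPM in EV_Tm and 46.2, 40.2 and 44.7 CPM in PBS_Tm, 1.21-fold higher (edgeR adjusted p = 0.00117). In both cases the 3 libraries of each group kept apart. Per length, Sec61a1 exceeded Sec61a2 by a ratio of 3.53, 3.33 and 3.29 in EV_Tm libraries and of 9.41, 10.5 and 9.45 in PBS_Tm libraries. The coding sequences of the paralogues are 78.7% identical, and no 100-base window of the annotated transcripts of either gene occurs in another gene. Of the exonic bases of Sec61a2, 19.9% overlap exons of Nudt5 on the opposite strand, and the part of this in its rise was not tested.

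The smaller channel subunits had fold changes nearer to 0 than Sec61a1, a difference that was not tested. Sec61b had 40.7, 32.6 and 36.2 CPM in EV_Tm and 52.0, 59.8 and 48.3 CPM in PBS_Tm, 1.46-fold lower (edgeR adjusted p = 3.28e-06). Sec61g had 30.6, 29.0 and 29.0 CPM in EV_Tm and 31.6, 34.7 and 32.0 CPM in PBS_Tm, and though its groups did not overlap it did not pass (log2 fold change -0.15 ± 0.07, SE, edgeR adjusted p = 0.0858). Of the 100-base windows of Sec61g transcripts, 12.7% also occur in another gene, most of all Gm10177. The part of this in its values was not tested. Sec62, which works with SEC63 on short precursors that arrive after translation and also serves ER recycling after stress, was 1.26-fold lower, at 95.0, 90.3 and 86.1 CPM in EV_Tm and 104, 116 and 120 CPM in PBS_Tm (edgeR adjusted p = 1.84e-05). Per length, in TPM (counts per base of gene length, scaled within the library), Sec61a1 averaged 135 ± 4 TPM, Sec61b 99.3 ± 10.9 TPM and Sec61g 41.5 ± 1.2 TPM in EV_Tm, and 330 ± 7, 148 ± 14 and 47.0 ± 1.9 TPM in PBS_Tm (SD, n = 3 each). The levels of Sec61a1 and Sec61b thus stood closer to each other in EV_Tm than in PBS_Tm, a description that was not tested.

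TRAP is a complex of 4 membrane proteins that helps chains with weak signal peptides open the channel, among them insulin precursors. Ssr3 (chr3:65379655-65392623), which encodes the gamma subunit, had the highest level per length of the 40 genes in both groups. It stood at 475, 461 and 475 CPM in EV_Tm and 796, 848 and 838 CPM in PBS_Tm, 1.76-fold lower (edgeR adjusted p = 2.74e-15). Ssr1, the alpha subunit, was 1.60-fold lower, at 107, 102 and 103 CPM in EV_Tm and 162, 172 and 166 CPM in PBS_Tm. Ssr2, the beta subunit, was 1.41-fold lower, at 102, 106 and 98.1 CPM in EV_Tm and 146, 148 and 136 CPM in PBS_Tm. For these 3 genes every EV_Tm library was below every PBS_Tm library. Ssr4, the delta subunit, did not pass, with 48.5, 45.1 and 46.0 CPM in EV_Tm and 48.5, 49.6 and 48.8 CPM in PBS_Tm (log2 fold change -0.07 ± 0.06, SE, edgeR adjusted p = 0.331). Per length the subunits were not equal in either group. Ssr3 averaged 390 TPM, Ssr2 189 TPM, Ssr4 52.0 TPM and Ssr1 34.5 TPM in EV_Tm, and 701, 271, 55.9 and 56.5 TPM in PBS_Tm, where Ssr4 and Ssr1 did not differ beyond their spread.

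TRAM1 lines the channel near the signal peptide, and SERP1 (also called RAMP4) is a small channel-associated protein that is induced by ER stress and protects new membrane proteins. Serp1 (chr3:58519817-58525892) had the smallest p of the 40 genes. It stood at 186, 183 and 192 CPM in EV_Tm and 614, 638 and 623 CPM in PBS_Tm, a 3.34-fold lower level (log2 fold change -1.74 ± 0.04, SE, edgeR adjusted p = 1.49e-21). Tram1 was 2.10-fold lower, at 113, 113 and 109 CPM in EV_Tm and 232, 233 and 236 CPM in PBS_Tm (edgeR adjusted p = 1.64e-16). Both genes were uniform within each group and widely apart between groups. The paralogue Tram2 just missed the threshold, with 26.8, 24.9 and 22.5 CPM in EV_Tm and 20.0, 21.9 and 22.5 CPM in PBS_Tm (log2 fold change 0.20 ± 0.08, SE, edgeR adjusted p = 0.0507), and under 7 of 15 alternative settings it was called higher. Per length, the ratio of Tram1 to Tram2 was 8.86, 9.56 and 10.2 in EV_Tm and 24.5, 22.5 and 22.1 in PBS_Tm.

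Signal peptidase held the widest spread of any complex apart from the Srp54 copies. Its catalytic subunit exists in 2 forms, SEC11A and SEC11C. Sec11c (chr18:65800549-65817665 as deposited, the only member whose coordinates differ from GENCODE M21) had 9.54, 7.41 and 8.35 CPM in EV_Tm and 37.5, 38.1 and 38.2 CPM in PBS_Tm, a 4.49-fold lower level (log2 fold change -2.17 ± 0.09, SE, edgeR adjusted p = 7.49e-16). Sec11a was 1.68-fold lower, at 63.4, 63.8 and 67.3 CPM in EV_Tm and 105, 115 and 106 CPM in PBS_Tm (edgeR adjusted p = 1.16e-11). All EV_Tm libraries were lower for both. Only RNA was measured, so the amounts of the proteins are not known. Per length, Sec11a exceeded Sec11c 4.44, 5.75 and 5.39 times in EV_Tm libraries and 1.87, 2.03 and 1.85 times in PBS_Tm libraries. These ratios use the deposited Sec11c length of 3084 bases, while its GENCODE M21 transcripts hold 7338 distinct 100-base windows. How far Sec11a exceeds Sec11c is therefore uncertain, though the same length was used in both groups. The coding sequences of the 2 forms are 77.0% identical where they align.

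The accessory subunits of signal peptidase parted. Spcs2 (chr7:99837569-99863462) was 2.92-fold lower, at 65.0, 70.1 and 67.2 CPM in EV_Tm and 191, 201 and 198 CPM in PBS_Tm (edgeR adjusted p = 8.99e-19). Spcs3, which the enzyme needs for activity, was 2.15-fold lower, at 149, 149 and 146 CPM in EV_Tm and 304, 322 and 328 CPM in PBS_Tm (edgeR adjusted p = 8.91e-17). Spcs1 rose slightly, with 103, 103 and 109 CPM in EV_Tm and 92.0, 98.5 and 92.9 CPM in PBS_Tm (log2 fold change 0.15 ± 0.05, SE, edgeR adjusted p = 0.0109). That call was lost without EV_Tm replicate 3 (edgeR adjusted p = 0.0836) and with an offset for gene length (edgeR adjusted p = 0.289). Of the exonic bases of Spcs1, 16.3% overlap Glt8d1 on the opposite strand. Per length the ratio of Spcs2 to Spcs1 was 0.230, 0.250 and 0.226 in EV_Tm and 0.762, 0.748 and 0.780 in PBS_Tm.

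The 4 ratios per length given above (Sec61a1 to Sec61a2, Sec11a to Sec11c, Tram1 to Tram2 and Spcs2 to Spcs1) were each compared between the groups on the log2 scale. The differences of EV_Tm minus PBS_Tm were -1.53, 1.43, -1.27 and -1.70 in that order. In all 4 the EV_Tm and PBS_Tm libraries did not overlap, and each exact permutation test (two-sided, 3 against 3 libraries) gave p = 0.1, also after Benjamini-Hochberg adjustment over the 4, which is the smallest p this design allows and so cannot pass 0.05.

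**Figure D4:**
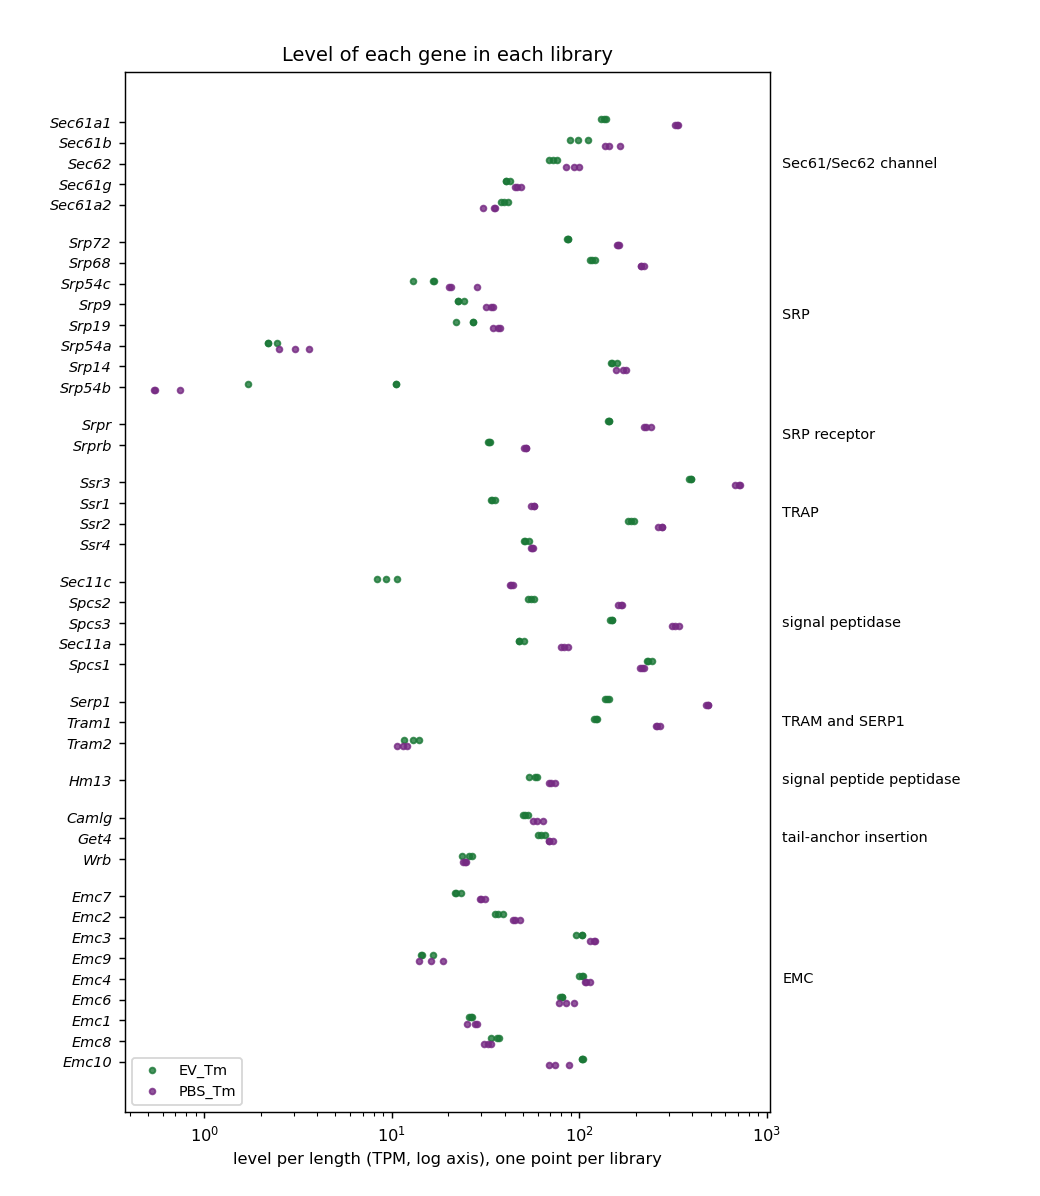
Level of each gene per length (x axis, TPM on a log scale) in each of the 3 EV_Tm and 3 PBS_Tm libraries, grouped by complex. Sec61a1 and Sec61a2, and Sec11a and Sec11c, are spaced differently in the groups, while most EMC genes show overlapping or nearly overlapping points.

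Hm13 encodes signal peptide peptidase, the intramembrane protease that clears signal peptides after they have been cut off. It was 1.22-fold lower, at 139, 152 and 149 CPM in EV_Tm and 186, 179 and 170 CPM in PBS_Tm (log2 fold change -0.28 ± 0.05, SE, edgeR adjusted p = 1.67e-05), and every EV_Tm library was below the lowest PBS_Tm library.

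Tail-anchored proteins are received at the ER by WRB and CAML, encoded by Wrb and Camlg, after GET4 and its partners have passed them on in the cytosol. Of these 3 genes 1 was called. The share of 33.3% lower lies near the 24.7% over all tested genes, so this count is no result about the set. Camlg had 27.1, 26.0 and 25.3 CPM in EV_Tm and 31.8, 29.9 and 27.8 CPM in PBS_Tm, 1.14-fold lower (log2 fold change -0.19 ± 0.08, SE, edgeR adjusted p = 0.0418), but 9 of 15 alternative settings ended this call. Get4, at 42.6, 43.9 and 45.9 CPM in EV_Tm and 49.6, 48.3 and 46.6 CPM in PBS_Tm, did not pass (edgeR adjusted p = 0.0901). Wrb had 29.8, 32.7 and 34.0 CPM in EV_Tm and 29.6, 30.8 and 30.3 CPM in PBS_Tm, with overlapping groups (edgeR adjusted p = 0.323).

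The EMC inserts tail-anchored proteins and the first segments of many multipass proteins. Of its 9 genes measured here, Emc7, Emc2 and Emc3 fell, Emc10 and Emc8 rose, and Emc1, Emc4, Emc6 and Emc9 did not pass. The shares of 33.3% lower and 22.2% higher lie near the 24.7% and 22.6% over all tested genes, so these counts are no result about the complex. Emc7, a luminal subunit, was 1.33-fold lower, at 37.2, 39.1 and 36.5 CPM in EV_Tm and 49.3, 49.4 and 50.9 CPM in PBS_Tm (edgeR adjusted p = 5.22e-06). Emc3, the subunit that forms the insertion groove, was 1.14-fold lower, at 101, 101 and 93.1 CPM in EV_Tm and 108, 116 and 112 CPM in PBS_Tm. Emc2, a cytosolic scaffold, was 1.20-fold lower. Emc10 (chr7:44489937-44496529), a luminal subunit with a secreted form, was 1.38-fold higher, at 87.4, 88.5 and 87.1 CPM in EV_Tm and 72.7, 62.2 and 56.3 CPM in PBS_Tm (edgeR adjusted p = 2.58e-06), and its PBS_Tm libraries spread far more than its EV_Tm libraries. Emc8, which shares its place in the complex with EMC9, was 1.13-fold higher, at 61.8, 67.4 and 66.5 CPM in EV_Tm and 57.8, 56.1 and 59.0 CPM in PBS_Tm (edgeR adjusted p = 0.00945). Its call was lost without EV_Tm replicate 2 (edgeR adjusted p = 0.0714) and without PBS_Tm replicate 2 (edgeR adjusted p = 0.0611). The 4 EMC genes that did not pass had log2 fold changes of -0.07 to -0.01 with SEs of 0.06 to 0.12, and overlapping groups. Emc1 shares 29.3% of its exonic bases with 2700016F22Rik on the opposite strand.

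**Figure D5:**
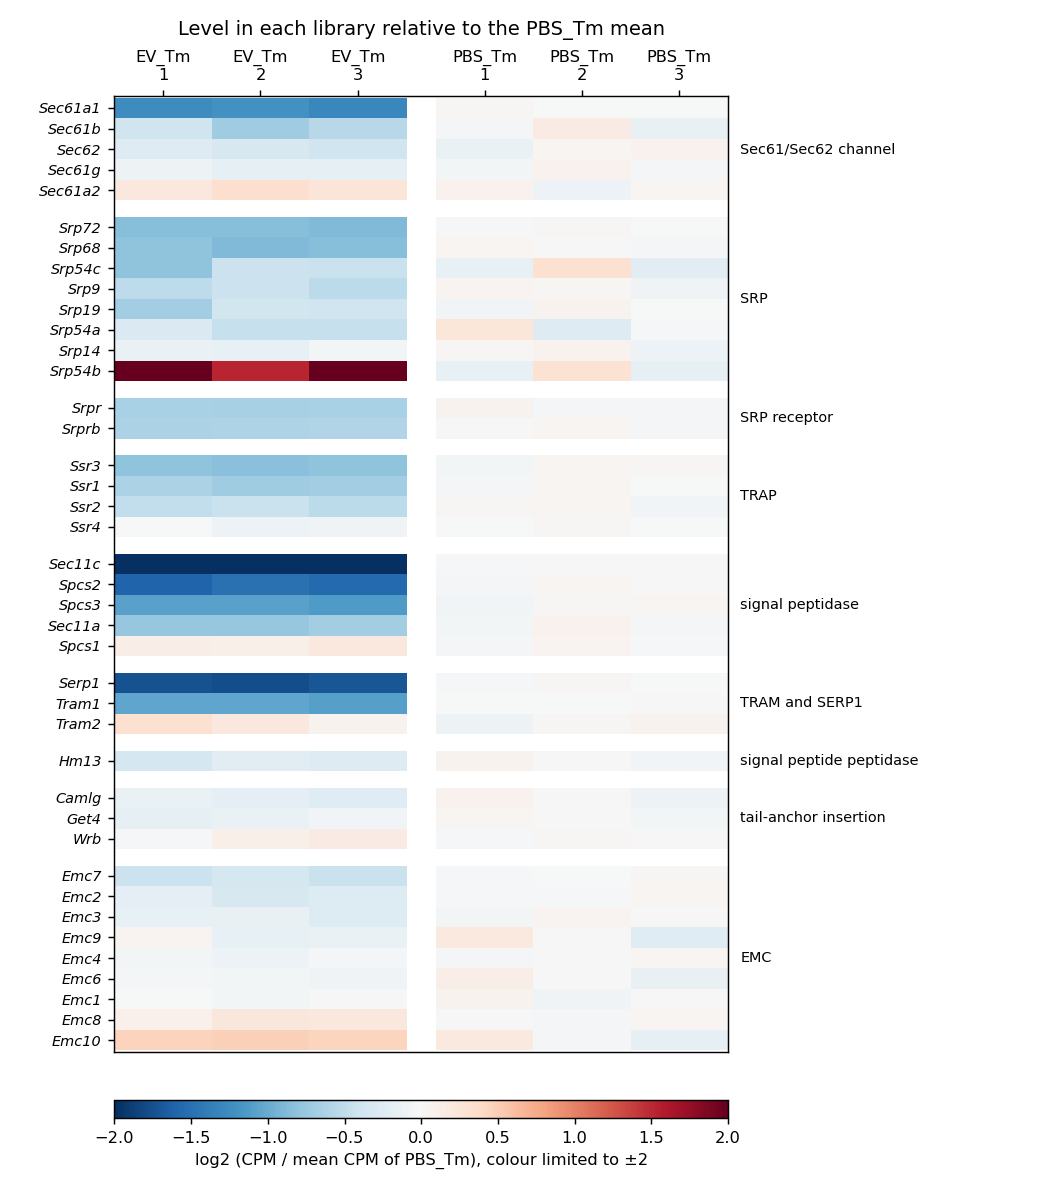
Level of each gene in each library relative to its mean in PBS_Tm (colour, log2 ratio of CPM, limited to ±2; columns are libraries, rows are genes by complex). Within a group the columns look alike for nearly all genes, with departures such as Srp54b in EV_Tm replicate 2 and Srp54c in PBS_Tm replicate 2.

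In all, the groups did not overlap for 27 genes with EV_Tm below and 6 with EV_Tm above, where 54.5% of all tested genes did not overlap, 27.9% with EV_Tm below and 26.6% with EV_Tm above. The fitted change was negative for 33 of the 40 genes. Short genes were higher in EV_Tm over the whole table, so the 40 genes were also set beside genes of similar length. In the quartile of tested genes up to 1892 bases the median log2 fold change was -0.12 for the 7 members and 0.17 for all genes. The 11 members of the next quartile, up to 3514 bases, had a median of -0.19, against 0.01 for all genes. The 16 members of 3514 to 5831 bases had -0.49, against -0.03 for all genes, and the 6 longer members had -0.15, against -0.07. The members' median was thus the lower one in each length class.

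Around these complexes 41 other genes of the route, also chosen with earlier results of these data known, were counted, of which 40 were tested. Of these 17 fell, 11 rose and 12 did not pass, and their median log2 fold change was -0.08. That is 42.5% lower and 27.5% higher, where 24.7% of all tested genes were lower and 22.6% higher. The counts of the smaller lists below stand against the same background shares, and with so few genes nothing particular to a list is read from them. Tram1l1, a TRAM paralogue named here because it was the one left out, had no counts. Among the partners of Sec61, 4 of 5 genes fell and 1 did not pass. Hspa5, the chaperone BiP that pulls chains into the lumen, had a log2 fold change of -3.40 ± 0.03, Hyou1, its exchange factor, -2.91 ± 0.04, and Sec63, the membrane protein that recruits BiP to the channel, -1.07 ± 0.05 (SE). In the oligosaccharyltransferase, which transfers N-glycans at the channel, 7 of 12 genes fell, 2 rose and the other 3 missed the threshold, with Rpn1 3.30-fold, Magt1 3.51-fold and Stt3a 2.17-fold lower. The multipass translocon, which joins Sec61 for multipass proteins, had 2 of 7 genes lower and 3 higher, among them Ccdc47 at a log2 fold change of -0.59 ± 0.04, Nomo1 at -0.40 ± 0.04 and Wdr83os at 0.72 ± 0.09 (SE). Of the cytosolic tail-anchor factors, 1 of 4 fell and 1 rose. Bag6, the chaperone that holds tail-anchored proteins, was 1.23-fold higher and Asna1, the targeting ATPase, 1.11-fold lower, while Ubl4a did not pass (edgeR adjusted p = 0.115). Without EV_Tm replicate 1 the call on Asna1 was lost (edgeR adjusted p = 0.0534).

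The remaining neighbours were mixed. Of the genes for ribosome and nascent chain binding, 2 of 5 fell and 2 rose. Rrbp1, a ribosome receptor of the rough ER, was 2.35-fold lower, and the nascent-chain genes Naca and Btf3 were 1.20-fold and 1.11-fold higher. Btf3 was not called with an offset for gene length (edgeR adjusted p = 0.112). Mmgt1, which encodes the EMC5 subunit, was 1.20-fold lower and its paralogue Mmgt2 1.46-fold higher. Sppl3 and Sppl2b, relatives of signal peptide peptidase, were 1.26-fold and 1.31-fold higher, and Sppl2a did not pass (edgeR adjusted p = 0.151), nor did Serp2, the paralogue of Serp1 (edgeR adjusted p = 0.91).

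Promoter windows from RefSeq (GRCm38.p6, 250 bases before to 50 after the annotated start) were found for 29 of the 40 genes, 15 of which had fallen. Among the genes without a window were Sec11c, Sec61a1, Spcs3 and Tram1, which all fell at least 2-fold. The letters below were thus not looked for in them. Each window was read on both strands for letters known from ER stress promoters. The ER stress element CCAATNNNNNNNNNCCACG was in none of the 29 and in 0.119% of all 32851 windows, and the related element ATTGGNCCACG was in none and in 0.0365%. The letters TGATGNAAT, which resemble ATF4 sites, were in none of the 29 and in 0.965% of all windows. TGACGTG, the core of sites bound by XBP1 and ATF6, was in the windows of Srpr and Hm13 and in 2.01% of all windows. The short letters CCACG, contained in both of the first elements, were in 16 of the 29 genes (55.2%), in 11 of the 15 that fell, and in 32.8% of all windows, and CCAAT was in 11 of the 29 (37.9%) and in 37.4% of all windows. A gene with several windows was counted if any held the letters, so its share is not strictly comparable with that over windows.

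The windows of the members with the largest falls that had a window, Serp1 and Spcs2, are shown beside that of Spcs1, the signal peptidase gene that rose, and that of Srpr, which holds TGACGTG. Capitals mark the letters named above wherever either strand held them, and each window runs 5′ to 3′ along the gene. Serp1 (chr3:58525835-58526134, minus strand) held CCAAT directly before a CCACG.
Serp1: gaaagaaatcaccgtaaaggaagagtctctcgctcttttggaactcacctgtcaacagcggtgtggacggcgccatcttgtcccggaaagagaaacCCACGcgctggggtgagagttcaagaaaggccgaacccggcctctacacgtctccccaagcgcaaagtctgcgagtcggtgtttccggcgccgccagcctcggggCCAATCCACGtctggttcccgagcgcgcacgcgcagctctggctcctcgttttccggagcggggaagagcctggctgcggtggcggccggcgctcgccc
Spcs2 (chr7:99858834-99859133, minus strand) held both letter groups far apart.
Spcs2: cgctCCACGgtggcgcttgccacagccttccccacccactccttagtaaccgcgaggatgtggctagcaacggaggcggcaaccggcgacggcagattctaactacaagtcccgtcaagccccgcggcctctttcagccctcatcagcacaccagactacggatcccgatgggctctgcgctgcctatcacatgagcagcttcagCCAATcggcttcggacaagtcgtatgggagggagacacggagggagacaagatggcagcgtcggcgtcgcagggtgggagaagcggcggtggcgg
Spcs1 (chr14:31001617-31001916, minus strand) held CCACG 4 times and no CCAAT.
Spcs1: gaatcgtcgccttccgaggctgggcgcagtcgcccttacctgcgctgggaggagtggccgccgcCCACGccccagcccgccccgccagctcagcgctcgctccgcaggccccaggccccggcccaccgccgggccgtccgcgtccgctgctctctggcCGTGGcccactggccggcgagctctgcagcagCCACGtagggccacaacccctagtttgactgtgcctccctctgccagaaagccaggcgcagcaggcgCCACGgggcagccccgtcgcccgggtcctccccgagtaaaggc
Srpr (chr9:35210953-35211252, plus strand) held all 3.
Srpr: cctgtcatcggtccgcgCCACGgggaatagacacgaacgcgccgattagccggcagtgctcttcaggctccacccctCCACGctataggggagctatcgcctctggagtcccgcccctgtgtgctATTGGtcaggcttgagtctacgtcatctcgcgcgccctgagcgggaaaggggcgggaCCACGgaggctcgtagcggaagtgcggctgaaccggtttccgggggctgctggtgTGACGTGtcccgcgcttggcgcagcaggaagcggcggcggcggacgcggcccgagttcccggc
Each window shown held CCACG, those of the genes that fell and that of Spcs1. Whether CCACG goes with the direction of change was not tested. These matches describe letters and do not show that a factor binds there.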

How the data were processed

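RNA was measured in 3 EV_Tm and 3 PBS_Tm libraries, grouped by their titles. The authors aligned reads with HISAT2 2.2.1, per the labels' protocols, and featureCounts 2.0.6 is named in the submitters' processing notes. What they deposited is unnormalized: whole counts of reads for each gene. The sources used here state neither strand nor multi-mapping settings, so genes that overlap or have copies are uncertain. In the annotation the exons of 18 members overlap another gene, in 9 of them over 10% of the bases. Beyond the genes named above for such an overlap, the latter are Emc4, Sec62, Srp9, Ssr2 and Wrb. The notes name mm39, but gene start and end in the deposited table (other values, in bases, as is gene length) equal those of GENCODE M21 on GRCm38 for 98.33% of shared identifiers and for 39 of the 40 members, so coordinates are printed as deposited and read as GRCm38.

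Counts were tested with edgeR 4.0.16 (R 4.3.3; TMM, filterByExpr, quasi-likelihood F test, two-sided, Benjamini-Hochberg adjustment over 16844 genes). The SE is the log2 fold change divided by the root of F. TPM used the deposited gene length. The fit was tested on simulated data. Named were all members and, of each companion list, the 3 tested genes with the smallest p. Members and lists were chosen with earlier results of these data known. Transcripts were compared with Biopython 1.88. Alternatives were other normalizations and filters, DESeq2 1.42.0, limma-voom 3.58.1, a block on replicate number, omission of each library, protein-coding genes only, an offset for gene length, and stricter thresholds. Libraries of 1 group differed by more than sampling noise, with a mean chi-square per gene of 3.59 to 7.22 within groups and 86.7 to 97.1 between them, and all were kept.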

Additional observations from a re-analysis of the deposited data

How the results depend on the processing

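Over 15 alternative settings, 26 of the 29 members called kept call and direction in all of them, and the exceptions were Camlg, Spcs1 and Emc8. The number of members called lower was 23 to 27 over these settings and called higher 4 to 6, with 23 and 4 at an adjusted p under 0.01. When a 2-fold change was also required, 6 members were lower and 1 higher, and 8 companion genes were lower and 0 higher, fewer because the rule is stricter; at an adjusted p under 0.05 edgeR called 11 companion genes higher. With each library left out in turn, members called lower numbered 23 to 25 and called higher 4 to 6, and companion genes called lower 15 to 19 and called higher 11 in every case. No pairing by replicate number was seen, though it is not excluded: deviations of same-numbered libraries correlated at -0.04, 0.02 and -0.01. The replicate block gave 23 members lower and 5 higher, and 17 companion genes lower and 11 higher, and of the members it changed only the call on Camlg (adjusted p = 0.0582). No called member changed sign. Of members that did not pass, Emc1 changed sign with library size only (log2 fold change 0.026), the 1 CPM filter (0.0009), protein-coding genes only (0.023) and the length offset (0.053), and the companion gene Serp2 with library size only (0.0068) and protein-coding genes only (0.0049). With a library left out, Emc1 ranged from -0.064 to 0.018, Emc6 from -0.14 to 0.0027 and Emc9 from -0.19 to 0.035, each positive only without PBS_Tm replicate 1, and Serp2 from -0.20 to 0.19, positive without EV_Tm replicate 2 or PBS_Tm replicate 1. The summed Srp54 copies ranged from -0.10 to 0.17 when a library was left out, and their sum was not run with limma-voom, protein-coding genes only or the length offset. The cause of these changes was not tested. Without 1 PBS_Tm library, Srp14 (replicate 3) and Srp54a (replicate 2, adjusted p = 0.0299) were called lower. The length offset also called Srp14, Get4 and Emc4 lower and Tram2 higher. Plain library size moved the median of all genes by 0.04 on the log2 scale.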
